A study of Homo sapiens with 6 samples.

Results

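The genes described here encode the nuclear subunits of the oxidative phosphorylation system of mitochondria, in HOK-16B cells, an immortalized line derived from keratinocytes of the human mouth. They were chosen by symbol among the protein-coding genes of GENCODE release 29: NDUFA, NDUFB, NDUFC, NDUFS or NDUFV plus a number and NDUFAB1 for complex I, SDHA to SDHD for complex II, CYC1 and symbols starting UQCR for complex III, COX4 to COX8 for complex IV, and symbols starting ATP5 for complex V. The rule found 90 of the 58735 genes in the deposited table, 38 in complex I, 4 in complex II, 10 in complex III, 17 in complex IV and 21 in complex V. The symbol rule takes in genes of complex V that are not structural subunits in the usual sense. Among them are ATP5S (current symbol DMAC2L), the readthrough ATP5MF-PTCD1 and ATP5IF1, the inhibitor protein, which are counted here as members. ATP5MD and ATP5MPL now carry the symbols ATP5MK and ATP5MJ.

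There were 6 libraries of total RNA sequenced in paired-end mode, 3 from cells pretreated with cannabidiol (CBD), a cannabis compound without intoxicating action, and 3 from cells given vehicle alone. The series describes cells of both groups as stimulated to inflame. Neither the stimulus nor its dose or duration is named in the labels, unstimulated cells are not analysed here, and the line number differs between sample descriptions although every sample carries the same cell line tag. Whether replicates came from separate cultures is not stated, so the p-values cover the spread among these libraries alone, and that spread may be technical.

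Oxidative phosphorylation is the last stage of respiration. Complexes I and II pass electrons from NADH and succinate to ubiquinone, complex III passes them on to cytochrome c, and complex IV passes them to oxygen; complexes I, III and IV pump protons across the inner mitochondrial membrane, and complex V, the ATP synthase, uses the returning protons to make ATP. Most subunits are encoded in the nucleus and imported, while a small core of complexes I, III, IV and V is encoded by mitochondrial DNA.

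Levels are in FPKM, a fragment count corrected for gene length and library depth. The length is the union of all annotated exons of a gene, which can exceed that of its transcript. Ranks per length between genes depend on it. The whole fragments recovered numbered 18213784 to 21200871 in the vehicle libraries and 19010494 to 22158614 in the CBD libraries. All 16 keratinocyte markers had a mean of at least 1 FPKM, with summed levels of 10867 to 12685 in vehicle and 13223 to 13813 in CBD libraries; of the markers of other cell types, COL1A1, FBN1, PMEL and CD14 reached 1 FPKM, out of 9 fibroblast, 7 melanocyte, 8 immune and 6 endothelial genes. Summed fibroblast markers were 8.52 to 9.24 FPKM in vehicle and 10.3 to 10.5 in CBD libraries, and their part in the results was not tested. Vehicle replicate 1 stood apart: its chi-square statistic per gene was 16.5 and 10.2 against vehicle replicates 2 and 3. Those 2 gave 4.42 against each other, and CBD pairs gave 2.95 to 3.07. Against the CBD libraries, vehicle replicate 1 gave 24.6 to 29.8 and vehicle replicate 3 gave 10.3 to 12.9. Vehicle replicate 2 gave 5.46 to 6.78 and so lay nearest to the CBD libraries. The GC content of the genes counted, averaged over fragments, was 49.6%, 50.3% and 50.0% in the vehicle libraries. It was 50.8%, 50.8% and 50.7% in the CBD libraries, so GC content moved with the groups. An effect of CBD and one of GC content cannot be told apart here, and removing a GC trend may remove part of either. Each printed gene difference and each median of a complex or list was also read in other settings. These had a smooth GC trend removed from each library, or left out vehicle replicate 1. Such a value is given where the sign turned or the value moved by over 1.5 times. Genes named without a difference are not covered by this.

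Subunit genes were for the most part a little higher with CBD, and 1 of them passed the test. UQCR10, which encodes a small subunit of complex III, rose from 29.5 ± 1.80 to 42.1 ± 2.08 FPKM (SD, n = 3). No subunit gene passed in the other direction. Of the 90 genes, 79 had a mean of at least 1 FPKM over the 6 libraries and entered the fit of 12517 genes (limma on log2(FPKM + 1), a scale that understates the change of low genes; Benjamini-Hochberg adjusted p under 0.05). That 1 call of 79 stands beside 0.256% of all tested genes called higher and 0.0959% called lower, or 0.352% in all. In these bulk samples, fewer cells of a type and less RNA per cell cannot be told apart.

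Before adjustment, 19 subunit genes had p under 0.05 with CBD higher and 5 with CBD lower, beside 15.4% and 16% of all tested genes. The 3 CBD values lay wholly above the 3 vehicle values in 23 subunit genes (29.1%), beside 18.7% of all tested genes, and wholly below in 9 (11.4%), beside 21.9%; in all, 32 were apart, beside 40.7%. The log2 difference was above 0 in 55 of the 79 (69.6%; 47.4% over all tested genes), with a median of 0.071 and a range from -0.30 to 0.79. The median over all tested genes was -0.013 (-0.0048 with the GC trend removed). With the GC trend removed the subunit median was 0.096 with 59 above 0, and without vehicle replicate 1 it was 0.064.

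The number of subunit genes that passed differed between settings. With limma-voom on the recovered fragments 11 were called higher (NDUFA3, NDUFB7, NDUFB10, NDUFS3, NDUFS6, UQCR10, COX4I1, COX5B, COX8A, ATP5F1D and ATP5IF1) and 0 lower, beside 7.26% and 6.68% of all tested genes. Adjusting over protein-coding genes only called 7 higher, beside 6.82% of such genes. Without vehicle replicate 2, 16 were called higher and 3 lower, beside 10.1% and 8.66%. With the GC trend removed 0 were called, while 20 had an unadjusted limma p under 0.05 with CBD higher and 3 with CBD lower. In that setting 2284 of the 12510 tested genes with a GC value had such a p, both directions together.

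**Figure D1:**
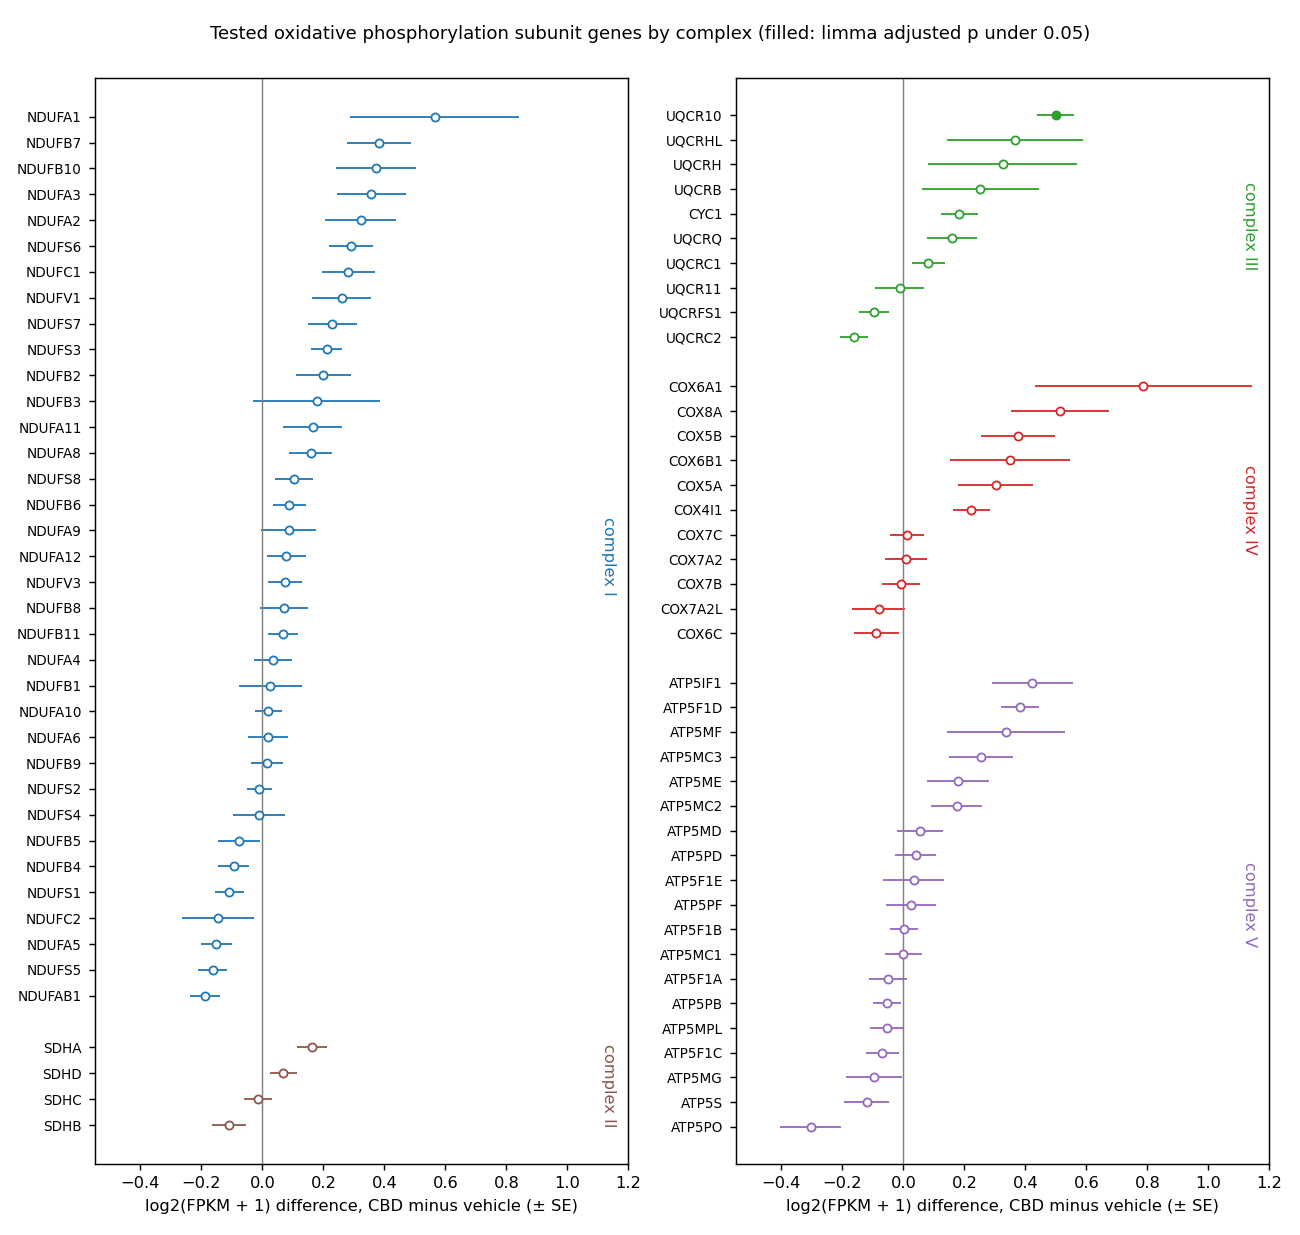
Fitted difference of each of the 79 tested subunit genes, CBD minus vehicle on the log2(FPKM + 1) scale, with its SE, grouped by complex; a filled point marks a limma adjusted p under 0.05. Only UQCR10 is filled, at 0.50, and the differences run from -0.30 (ATP5PO) to 0.79 (COX6A1), the latter with the widest error bar.

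Summed over each complex, levels in vehicle replicates 1 to 3 and then CBD replicates 1 to 3 show which complexes separated the groups. Complex IV summed to 433, 560 and 524 FPKM with vehicle and to 611, 621 and 595 with CBD, a ratio of means of 1.2. Complex III gave 377, 423 and 406 against 440, 462 and 437, a ratio of 1.11. Complex I gave 865, 951 and 914 against 977, 988 and 954, a ratio of 1.07. In each of these 3 complexes every CBD library lay above every vehicle library, and vehicle replicate 1 was the lowest library. Without that library the ratios were 1.12, 1.08 and 1.04. Complex V did not overlap either, at 796, 786 and 766 against 808, 824 and 797 FPKM, a ratio of 1.03, but there the nearest libraries differed by less than 1 FPKM. Complex II overlapped, at 82.4, 85.4 and 88.6 against 87.3, 87.0 and 85.7. A sum is carried by its few highest genes, so the medians over genes are given with each complex below.

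**Figure D2:**
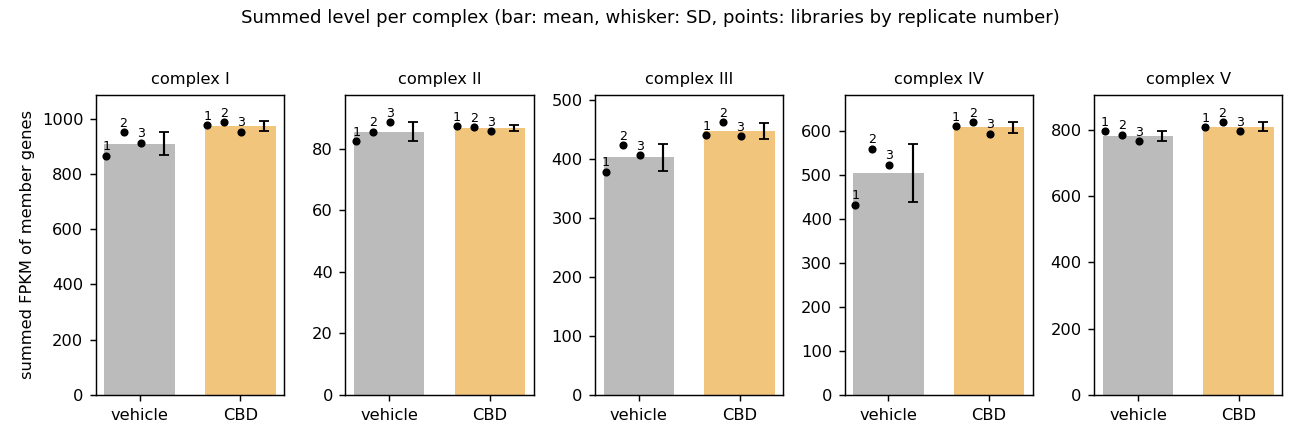
Summed FPKM of the member genes of each complex, on axes that start at 0; bars are means of 3 libraries, whiskers SD, and points the libraries by replicate number. The CBD libraries lie above the vehicle libraries in complexes I, III, IV and V, by the most in complex IV (506 ± 65.6 against 609 ± 13.3), where vehicle replicate 1 is lowest at 433.

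Promoters of these genes are known for binding sites of nuclear respiratory factor 1 (NRF1), of ETS-family factors such as GABP (nuclear respiratory factor 2) and of YY1. The RefSeq table (GRCh38.p14) gave a promoter of 300 bases around the start for 70 of the 90 genes. Searched on both strands, the ETS word CCGGAAGT was in 10 of these (14.3%), beside 4.14% of all 35116 promoters of the table and 9.65% of 9079 promoters of other genes with a mean of at least 1 FPKM. The YY1 word AAGATGGC was in 11 (15.7%; 2.89% and 5.85%), the NRF1 word (in capitals in the NDUFA8 window) in 4 (5.71%; 1.24% and 2.41%), and TATAAA in 7 (10%; 11.5% and 4.98%). A match is a description of the letters and not a bound site. The window from 100 bases before to 30 after the start is printed for UQCR10, the gene that passed the test. It is also printed for COX5B, COX8A and NDUFA3, with CBD values wholly above the vehicle values and a match, and for NDUFA8, with the NRF1 word. These are examples picked with values known. SDHD, NDUFS7, NDUFA9 and NDUFA2 also had a match and CBD wholly higher. ATP5PO and SDHB (YY1 word), NDUFS1 (ETS), NDUFB4 (NRF1) and UQCRC2 (TATAAA) had a match and CBD wholly lower. Sequences run 5′ to 3′ on the gene's strand, with the matched words in capitals.
UQCR10, chr22:29767269-29767398, plus strand, none of the 4 words: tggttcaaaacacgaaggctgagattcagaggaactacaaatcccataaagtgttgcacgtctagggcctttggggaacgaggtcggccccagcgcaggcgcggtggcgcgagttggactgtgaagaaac
COX5B, chr2:97645962-97646091, plus strand, ETS word at 2 places: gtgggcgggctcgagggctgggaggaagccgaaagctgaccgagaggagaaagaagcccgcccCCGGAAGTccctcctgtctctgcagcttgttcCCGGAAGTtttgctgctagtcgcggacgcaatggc
COX8A, chr11:63974520-63974649, plus strand, ETS word in reverse: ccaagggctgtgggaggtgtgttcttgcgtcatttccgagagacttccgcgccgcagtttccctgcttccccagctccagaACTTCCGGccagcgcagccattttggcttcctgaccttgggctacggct
NDUFA3, chr19:54102755-54102884, plus strand, YY1 word: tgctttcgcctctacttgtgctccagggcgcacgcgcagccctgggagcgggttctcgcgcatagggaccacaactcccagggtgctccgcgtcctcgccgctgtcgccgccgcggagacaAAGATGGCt
NDUFA8, chr9:122159750-122159879, minus strand, NRF1 word: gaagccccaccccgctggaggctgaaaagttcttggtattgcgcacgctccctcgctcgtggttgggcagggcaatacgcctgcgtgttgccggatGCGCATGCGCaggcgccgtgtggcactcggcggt

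The 9 tested genes with the ETS word had a median log2 difference of 0.068 (range -0.11 to 0.51) and the 54 without it 0.080; with the GC trend removed the order turned, at 0.13 and 0.097. For the YY1 word the medians were 0.022 in 10 genes with it and 0.089 in 53 without, and 0.046 and 0.12 with the GC trend removed. For the NRF1 word they were -0.00057 in 4 and 0.082 in 59, and 0.077 and 0.11 with the GC trend removed; without vehicle replicate 1 the 4 genes had 0.0099. These are descriptions with no test.

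Complex I takes electrons from NADH through a flavin and a chain of iron-sulfur clusters in its core, which has 7 nuclear subunits, and accessory subunits are built around that core. No complex I gene passed the test. At an unadjusted limma p under 0.05, 9 were higher and 3 lower, and limma-voom called 5 higher and 0 lower. Over all tested genes the shares were 15.4% and 16% at that p, and 7.26% and 6.68% by limma-voom. The same shares stand beside the counts of each complex below. Of 35 tested, 26 lay above 0 and 9 below, with a median log2 difference of 0.079 (0.078 with the GC trend removed and 0.078 without vehicle replicate 1). The values did not overlap in 11 genes with CBD higher (31.4%, beside 18.7% of all tested genes) and in 5 with CBD lower (14.3%, beside 21.9%).

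Among the core subunits, NDUFV1, which carries the flavin that oxidizes NADH, had 30.9, 40.8 and 34.7 FPKM with vehicle and 42.5, 43.8 and 40.9 with CBD. All CBD values lay above the vehicle values, by a margin that was small against vehicle replicate 2, and the log2 difference was 0.26 ± 0.10 (SE; limma adjusted p = 0.126). With a GC content of 59.7%, its difference was 0.099 with the GC trend removed, 0.17 without vehicle replicate 1 and 0.050 with both. NDUFS3, an iron-sulfur fraction subunit without a cluster of its own, had 13.2, 13.7 and 13.5 FPKM against 15.5, 15.2 and 16.6, a difference of 0.21 ± 0.05 (limma adjusted p = 0.0700). The largest core subunit, NDUFS1, went the other way at 11.1, 11.0 and 11.0 FPKM against 10.3, 9.69 and 10.4. Its vehicle libraries were nearly alike and all above the CBD libraries, with a difference of -0.11 ± 0.05 (limma adjusted p = 0.172) that was -0.00048 with the GC trend removed. Over the 6 tested core genes the median was 0.16, and -0.015 with the GC trend removed; their median GC content was 56.7%, against 48.9% over all tested genes. NDUFV2, the seventh core gene, averaged 0.651 FPKM and was not tested.

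Accessory subunits held both extremes of complex I among genes whose groups did not overlap. NDUFB7, a membrane-arm subunit on the side of the intermembrane space, had 67.2, 87.3 and 72.7 FPKM with vehicle and 106, 99.1 and 90.8 with CBD. The highest vehicle library came close to the lowest CBD library, and the difference was 0.38 ± 0.10 (SE; limma adjusted p = 0.0811). NDUFB7 has a GC content of 65.0%, and its difference was 0.12 with the GC trend removed. NDUFAB1, the mitochondrial acyl carrier protein, which also serves lipoic acid and fatty acid synthesis, lay lower with CBD, at 41.4, 39.3 and 41.7 FPKM against 36.7, 34.4 and 36. Its difference was -0.19 ± 0.05 (limma adjusted p = 0.0763) and -0.16 with the GC trend removed.

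The most abundant complex I transcript per length was NDUFS5, an accessory subunit of the membrane arm, with a mean of 152 FPKM; it too was lower in every CBD library, at 161, 156 and 166 against 142, 143 and 147 FPKM (difference -0.16 ± 0.05; limma adjusted p = 0.0867). NDUFS6, an accessory subunit that binds zinc, had 23.7, 25.3 and 22.5 FPKM with vehicle and 28.6, 32.0 and 27.7 with CBD (0.29 ± 0.07; limma adjusted p = 0.0709). NDUFA3, whose window is printed above, had 5.31, 7.73 and 6.65 against 8.38, 8.96 and 8.48 FPKM (0.36 ± 0.11; limma adjusted p = 0.0984), and 0.22 with the GC trend removed or 0.23 without vehicle replicate 1. The groups stayed apart in each of these 3 genes. NDUFA8, the gene with the NRF1 word, had 64.0, 76.5 and 71.1 against 77.7, 80.3 and 78.0 FPKM, a difference of 0.16 ± 0.07 (limma adjusted p = 0.170) that was 0.091 without vehicle replicate 1. NDUFA4, named for complex I but now counted as a subunit of complex IV, overlapped between groups, at 28.0, 25.6 and 26.9 against 28.4, 28.8 and 25.5 FPKM, with a difference of 0.035. That difference was 0.18 with the GC trend removed (limma adjusted p = 0.185) and 0.066 without vehicle replicate 1.

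Complex II, succinate dehydrogenase, is also an enzyme of the citric acid cycle and has 4 subunits, all nuclear. None passed the test (1 higher at an unadjusted limma p under 0.05, 0 by limma-voom), and the 4 genes were split, with a median of 0.027, or 0.094 with the GC trend removed and 0.013 without vehicle replicate 1. SDHA, the flavoprotein that oxidizes succinate, had 15.2, 16 and 16.6 FPKM with vehicle and 18.3, 17.7 and 17.8 with CBD, without overlap (0.16 ± 0.05 SE; limma adjusted p = 0.0938). SDHB, the iron-sulfur subunit that takes the electrons from SDHA, had 28.9, 29.3 and 32.4 FPKM against 27.4, 28.5 and 27.7. It was lower in every CBD library, by less than the spread of the vehicle libraries (-0.11 ± 0.057; limma adjusted p = 0.225), and its difference was -0.062 with the GC trend removed and -0.059 without vehicle replicate 3. Of the membrane anchors, SDHD had 30.7, 32.2 and 32.0 FPKM against 33.8, 33.0 and 32.7 (0.068 ± 0.044; limma adjusted p = 0.319; 0.11 with the GC trend removed). The other anchor, SDHC, overlapped at 7.66, 7.96 and 7.61 against 7.71, 7.74 and 7.52 FPKM, and its difference of -0.014 was 0.078 with the GC trend removed. SDHD shares 5.59% of its 75-base words with other loci, mainly a processed pseudogene, so its level is in part uncertain. That share counts words over the annotated transcripts and not reads.

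Complex III passes electrons from ubiquinol to cytochrome c through cytochrome b, cytochrome c1 and the Rieske iron-sulfur protein, set on core proteins and small subunits. Its median log2 difference was 0.17 over 10 genes, 7 of them above 0. That median was 0.054 with the GC trend removed and 0.067 without vehicle replicate 1.

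UQCR10, the small subunit that passed the test, is a gene of chromosome 22, spanning bases 29767369 to 29770413 on the plus strand in GENCODE 29 (GRCh38). It had 28.3, 31.6 and 28.6 FPKM with vehicle and 41.7, 44.4 and 40.3 with CBD. The gap between the highest vehicle and the lowest CBD library exceeded the spread within either group, and no library stood out. The difference was 0.50 ± 0.06 (SE; 95% interval 0.35 to 0.65; limma adjusted p = 0.0452). It was 0.51 with the GC trend removed, where the limma adjusted p was 0.0609. The call held in 9 of 19 settings, with limma adjusted p from 0.0117 to 0.198 and a limma-voom adjusted p of 0.00853, and ended without vehicle replicate 3 (0.167) or without CBD replicate 1, 2 or 3 (0.160, 0.198 and 0.177), where the difference was 0.46 to 0.53. UQCR10 has a GC content of 49.3%, shares no exon base with another annotated gene and no 75-base word with another locus.

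No other complex III gene passed the test (1 higher and 1 lower at an unadjusted limma p under 0.05, 0 by limma-voom). CYC1, cytochrome c1, had 67.4, 75.8 and 68.0 FPKM against 80.8, 81.9 and 77.2, without overlap (0.18 ± 0.06, limma adjusted p = 0.104). Its GC content is 62.7%, and its difference was -0.034 with the GC trend removed. UQCRFS1, the Rieske protein, overlapped narrowly at 29.8, 29.9 and 28.4 FPKM against 28.4, 27.4 and 26.4 (-0.097 ± 0.049; limma adjusted p = 0.218), and its difference was -0.019 with the GC trend removed; it shares 10.03% of its 75-base words with another locus, a processed pseudogene. The core proteins differed in sign. UQCRC2 had 36.6, 34 and 36.3 FPKM against 31.9, 31.3 and 31.9, lower in every CBD library (-0.16 ± 0.05; limma adjusted p = 0.0874), and -0.062 with the GC trend removed. UQCRC1, the most abundant complex III transcript per length, overlapped at 105, 94.3 and 98.6 against 106, 107 and 102 FPKM (0.082 ± 0.055; limma adjusted p = 0.335), and its difference was -0.055 with the GC trend removed and 0.12 without vehicle replicate 1.

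**Figure D3:**
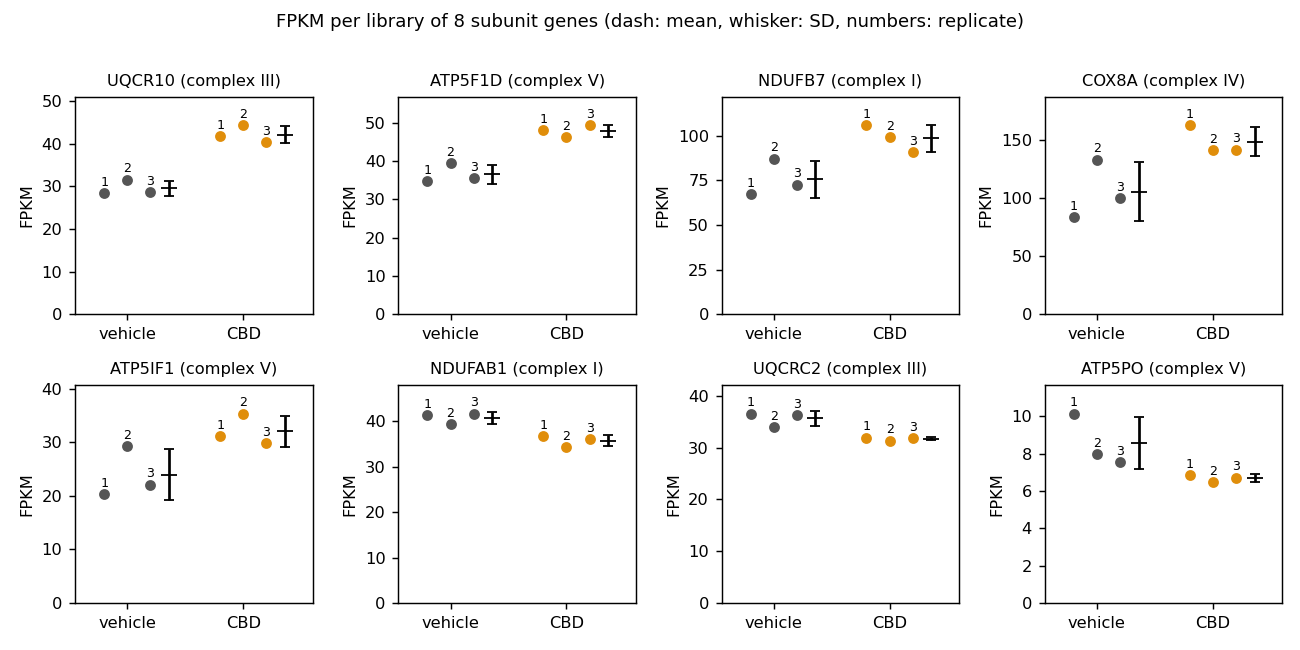
FPKM in each library of 8 subunit genes, on axes that start at 0; points are libraries by replicate number, dashes group means and whiskers SD. UQCR10 shows the widest separation against its spread (28.3 to 31.6 against 40.3 to 44.4), and NDUFAB1, UQCRC2 and ATP5PO have all CBD libraries below all vehicle libraries.

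Complex IV, cytochrome c oxidase, reduces oxygen at a catalytic core encoded by mitochondrial DNA, which the nuclear subunits surround and tune. It held the highest median among the complexes, 0.22 over 11 tested genes, of which 8 lay above 0. Values did not overlap in 6 genes with CBD higher (54.5%, beside 18.7% of all tested genes) and in 0 with CBD lower (beside 21.9%). With the GC trend removed all 11 lay above 0 with a median of 0.18, and without vehicle replicate 1 the median was 0.096. None passed the test, although 4 had an unadjusted limma p under 0.05 with CBD higher and limma-voom called 3 of them.

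COX4I1, the main regulatory subunit outside hypoxia, had 46.2, 51.8 and 50.8 FPKM with vehicle and 56.3, 60.4 and 57.5 with CBD. The groups were apart with a similar spread in each, and the difference was 0.22 ± 0.06 (SE; limma adjusted p = 0.0783; 0.18 with the GC trend removed). COX5A, which joins COX4I1 early in assembly, had 40.0, 53.8 and 56.1 against 59.7, 64.1 and 59.8 FPKM (0.30 ± 0.12; limma adjusted p = 0.149), and 0.15 without vehicle replicate 1. The zinc-binding subunit COX5B had 46.3, 65.1 and 53.1 against 67.7, 76.7 and 68.2 FPKM (0.38 ± 0.12; limma adjusted p = 0.102). In both, vehicle replicate 1 was the lowest library.

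COX8A, a small membrane subunit and the most abundant complex IV transcript per length, had 83.5, 133 and 99.5 FPKM with vehicle and 163, 141 and 141 with CBD. The vehicle libraries were widely spread and vehicle replicate 2 came close to the CBD libraries (0.51 ± 0.16 SE; limma adjusted p = 0.0958). Its annotated exons share 34.5% of their bases with another gene. COX6A1, a small subunit near the dimer interface, showed the largest difference of any tested subunit gene. Much of its size rested on vehicle replicate 1. The values were 6.55, 20.7 and 16.5 FPKM with vehicle and 24.1, 23.7 and 22.8 with CBD, without overlap. That difference was 0.79 ± 0.35 (limma adjusted p = 0.179) and 0.33 without vehicle replicate 1. COX6A1 also shares 10.7% of its 75-base words with a processed pseudogene.

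Subunits of the COX7 and COX6C kind overlapped between the groups, and each of the 5 named here had a higher difference with the GC trend removed. COX7A2, the form of this subunit found in most tissues, had 40.0, 34.1 and 37.3 against 35.4, 38.3 and 38.2 FPKM (0.0075 ± 0.069; limma adjusted p = 0.949), and 0.12 with the GC trend removed or 0.062 without vehicle replicate 1. COX7A2L, which helps join complexes III and IV into supercomplexes, had 10.9, 10.2 and 8.63 against 9.47, 9.62 and 8.76 FPKM (-0.081 ± 0.086; limma adjusted p = 0.535), and 0.011 with the GC trend removed or -0.014 without vehicle replicate 1. COX7B, COX7C and COX6C had differences of -0.0084, 0.012 and -0.089, and in each the groups overlapped. Their differences with the GC trend removed were 0.11, 0.14 (limma adjusted p = 0.271) and 0.0086, and COX7B had -0.055 without vehicle replicate 1. None of the 6 isoforms known from muscle, testis, lung or other restricted tissues was tested: COX4I2, COX7B2 and COX8C were at 0 in all 6 libraries, and COX6A2, COX6B2 and COX7A1 averaged 0.0299, 0.268 and 0.142 FPKM. A count of 3 fragments amounts to 0.126 to 0.153 FPKM for an exon length of 1 kb, and to less for a longer one. That limit covers counting error only. COX6B2, with 3815 bases, had 12 to 34 fragments per library, and COX7A1, with 1006 bases, had 1 to 6.

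Complex V, the ATP synthase, has a catalytic F1 head with a central stalk, a proton-driven ring of c subunits in the membrane, a peripheral stalk that holds the head still, small membrane subunits and an inhibitor protein. Its median was 0.025 over 19 tested genes, 12 above 0, with 2 genes apart in each direction (10.5% each way, beside 18.7% higher and 21.9% lower). The median was 0.064 with the GC trend removed, with 16 of the 19 above 0, and without vehicle replicate 1 it was 0.043. Leaving out vehicle replicate 2 or 3 gave -0.010 and -0.0061. No complex V gene passed the test (3 higher and 1 lower at an unadjusted limma p under 0.05; 2 higher and 0 lower by limma-voom).

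The catalytic subunit ATP5F1B was the most abundant nuclear subunit transcript per length of all 90, at 340, 324 and 325 FPKM with vehicle and 329, 330 and 330 with CBD. The CBD libraries lay inside the vehicle range, with a difference of 0.0023 ± 0.046 (SE; 95% interval -0.11 to 0.11; limma adjusted p = 0.978) that was 0.025 without vehicle replicate 1. ATP5F1A, its partner in the head, overlapped at 47.4, 41.2 and 41.6 against 42.3, 41.5 and 41.6 FPKM (-0.051 ± 0.063; limma adjusted p = 0.597), and 0.0034 with the GC trend removed or 0.013 without vehicle replicate 1. ATP5F1D, the delta subunit of the central stalk, separated the groups, at 34.7, 39.4 and 35.5 FPKM against 48.0, 46.2 and 49.4, without overlap (0.38 ± 0.06; limma adjusted p = 0.0538). It has the highest GC content of the tested subunit genes, 67.6%, and with the GC trend removed its difference was 0.064.

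Of the 3 genes for the c ring, whose mature proteins are the same, ATP5MC1 overlapped at 33.0, 30.4 and 29.2 against 31.2, 29.6 and 31.7 FPKM (4.4e-05 ± 0.059; limma adjusted p = 0.9997), and -0.017 with the GC trend removed or 0.048 without vehicle replicate 1. ATP5MC2 had 18.7, 23.6 and 21.7 against 23.9, 25.0 and 23.4 FPKM (0.17 ± 0.08; limma adjusted p = 0.201), and ATP5MC3 had 18.2, 24.6 and 21.5 against 25.7, 26.8 and 24.3 (0.26 ± 0.10; limma adjusted p = 0.150). Both overlapped through vehicle replicate 2, and their differences without vehicle replicate 1 were 0.087 and 0.15. That of ATP5MC2 was 0.11 with the GC trend removed.

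ATP5IF1, the inhibitor that binds the F1 head when the proton gradient collapses, had 20.3, 29.3 and 22.1 FPKM with vehicle and 31.1, 35.4 and 29.8 with CBD. The groups stayed apart by a margin of less than 1 FPKM, with a difference of 0.42 ± 0.13 (SE; limma adjusted p = 0.0983) that was 0.43 with the GC trend removed. ATP5PO, the peripheral stalk subunit that confers oligomycin sensitivity, showed the largest difference in the other direction, at 10.2, 7.98 and 7.55 FPKM against 6.87, 6.48 and 6.73. The difference was -0.30 ± 0.10 (limma adjusted p = 0.104) and -0.19 without vehicle replicate 1, which here was the highest library. ATP5PO shares 25.4% of its exon bases with other annotated genes. The other 3 peripheral stalk genes, ATP5PB, ATP5PD and ATP5PF, had differences of -0.053, 0.040 and 0.025, which were 0.029, 0.10 and 0.083 with the GC trend removed; ATP5PF had 0.10 without vehicle replicate 1.

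Vehicle replicate 1 alone was low for a group of subunit genes. In 8 of the 79 (10.1%) its log2(FPKM + 1) lay at least 0.5 below the lowest of the other 5 libraries, beside 1.37% of all tested genes; this limit was chosen after seeing the data. The genes were COX6A1 (gap -1.22), UQCRH (-0.91), NDUFA1 (-0.80), COX6B1 (-0.72), UQCRHL (-0.71), ATP5MF (-0.69), UQCRB (-0.63) and NDUFB3 (-0.60). Differences of COX6B1, ATP5MF, UQCRB and NDUFB3 were 0.35, 0.34, 0.25 and 0.18. Without vehicle replicate 1 they were 0.096, 0.095, 0.019 and -0.088, and UQCRB had 0.42 with the GC trend removed. UQCRH, the hinge subunit of complex III, had 41.7, 83.6 and 79.9 FPKM with vehicle and 79.1, 86.1 and 81.4 with CBD. Its difference of 0.33 was 0.0078 without vehicle replicate 1. UQCRHL, a near copy of UQCRH, had 0.37, or 0.090 without that library, and 6.72% of the 75-base words of UQCRH occur there, so reads of the 2 genes are in part uncertain. NDUFA1, a membrane-arm subunit of complex I, had 13.3, 32.8 and 23.95 against 33.4, 32.7 and 32.7 FPKM, and its difference of 0.57 was 0.23 without that library.

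Of the 8 gaps, 5 were in subunit genes with an exon length of up to 1500 bases. At that length, 22.7% of 22 subunit genes and 7.22% of 374 other protein-coding genes had such a gap. Those were 27 of the 100 gaps in other protein-coding genes. Over all lengths the share was 10.1% of the subunits and 0.944% of 10596 other protein-coding genes, and the median exon length was 2462 bases for the tested subunits against 4552 for all tested genes. The part of transcript length in the gap was not tested beyond these counts.

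**Figure D4:**
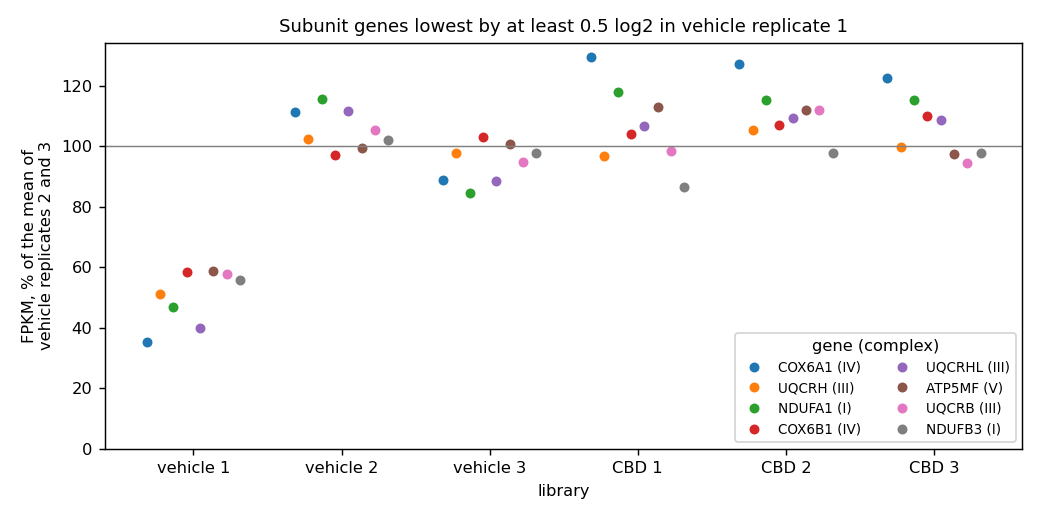
FPKM of the 8 subunit genes with a gap in vehicle replicate 1, as a percentage of the mean of vehicle replicates 2 and 3 (grey line at 100), by library; colours are genes. Vehicle replicate 1 lies lowest for every gene shown, while vehicle replicates 2 and 3 and the CBD libraries lie together for UQCRH, UQCRB and NDUFB3 and somewhat higher with CBD for COX6A1.

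Subunit genes with a higher transcript GC content had higher differences, a relation also present over all genes. Across the 79 genes, which share the same 6 libraries and are not independent, Spearman's rho was 0.56, and 0.67 across 12510 tested genes with a GC value. Among the 27 subunit genes with the lowest GC content (36% to 45.1%) 11 lay above 0, with a median of -0.014. Among the middle 25 it was 19 with 0.040, and among the 27 with the highest GC content (51.7% to 67.6%) 25 with 0.21. With the GC trend removed, rho was -0.037 and the 3 medians were 0.078, 0.083 and 0.11. Without vehicle replicate 1, rho was 0.66. The 8 tested members on chromosome 19, NDUFB7 and ATP5F1D among them, had a median GC content of 60.5% and a median difference of 0.29, which was 0.022 with the GC trend removed and 0.14 without vehicle replicate 1.

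**Figure D5:**
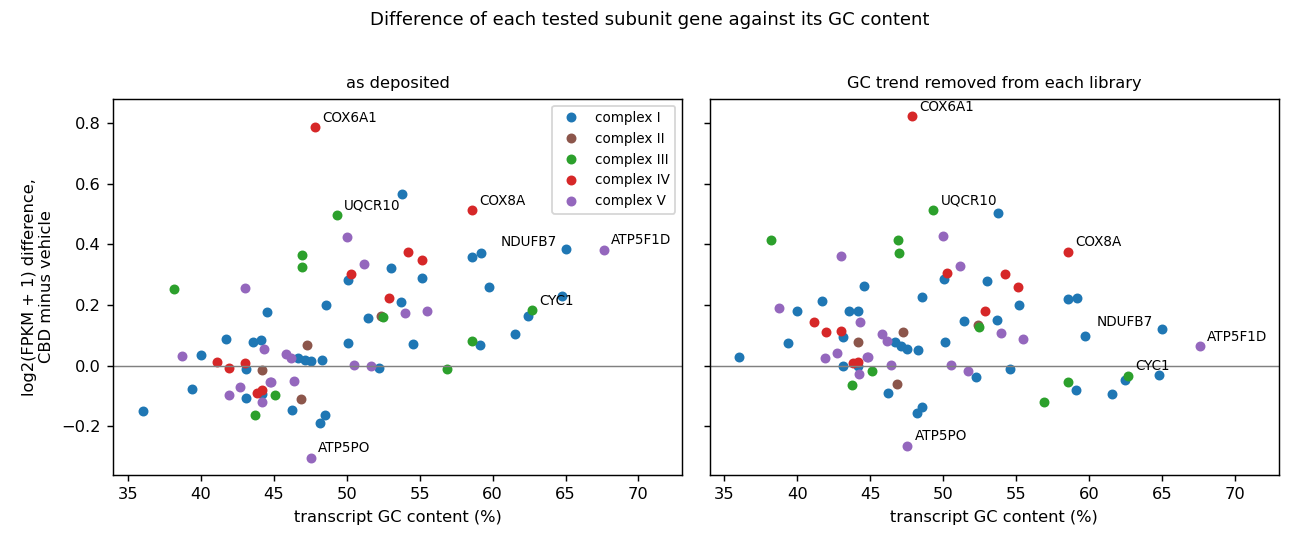
Log2 difference of each of the 79 tested subunit genes against its transcript GC content in %, as deposited (left) and with the GC trend removed from each library (right); colours are complexes. On the left the GC-rich genes lie higher (ATP5F1D at 0.38, CYC1 at 0.18), and on the right these lie at 0.064 and -0.034 while UQCR10 lies at 0.51 and ATP5PO at -0.26.

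The partners of these subunits were read from lists of other pathway genes. Of 97 tested, 0 passed the test in either direction; 12 were higher and 21 lower at an unadjusted limma p under 0.05, beside 15.4% and 16% of all tested genes, and limma-voom called 6 higher and 11 lower, beside 7.26% and 6.68%. The 13 subunits encoded by mitochondrial DNA, which join the nuclear subunits in complexes I, III, IV and V, had 11 members below 0 and a median of -0.10, or -0.0086 with 6 above 0 with the GC trend removed. Their summed level was 45991 ± 2564 FPKM with vehicle and 42530 ± 2032 with CBD (SD, n = 3). The lowest vehicle library, at 43338, lay below the highest CBD library, at 44814, so the groups overlapped. Gene by gene, 0 of the 13 were apart with CBD higher and 7.69% with CBD lower, beside 18.7% and 21.9% of all tested genes. MT-ND4L, a membrane subunit of complex I, was the only 1 of the 13 without overlap, at 3805, 3326 and 3913 FPKM against 2918, 3195 and 3307 (-0.23 ± 0.09; limma adjusted p = 0.132; -0.12 with the GC trend removed). MT-ND3 had the largest positive difference, 0.11, which was 0.26 with the GC trend removed and 0.012 without vehicle replicate 1.

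Assembly factors build the complexes but are absent from the finished enzymes. The 13 tested factors of complexes II, III and V had a median of 0.033, or -0.012 with the GC trend removed and -0.00075 without vehicle replicate 1. For the 21 tested complex IV factors these values were -0.044, -0.0021 and -0.0098. Of 18 complex I factors 12 lay below 0 (median -0.062). TMEM126B, of the complex that assembles the membrane arm, had 18.5, 18.2 and 17.8 FPKM against 15.3, 14.8 and 15.7 (-0.24 ± 0.04; limma adjusted p = 0.0574), and ACAD9 of the same assembly complex had 15.4, 17.1 and 17.4 against 18.1, 18.5 and 18.4 (0.13; limma adjusted p = 0.158). The groups were apart in both, in opposite directions. With the GC trend removed the differences were -0.077 and 0.061, and that of ACAD9 was 0.083 without vehicle replicate 1. Of the 13 tested factors of complexes II, III and V, UQCC3, a complex III factor, had 3.39, 4.79 and 3.76 FPKM against 6.43, 6.41 and 5.88 (0.55 ± 0.10; limma adjusted p = 0.0574), and LYRM7, which delivers the Rieske protein, -0.23 (limma adjusted p = 0.0732), or -0.055 with the GC trend removed. Of 21 tested complex IV factors, COX14 had 14.9, 15.4 and 13.7 against 17.3, 18.9 and 18.3 FPKM (0.30 ± 0.06; limma adjusted p = 0.0604) and COA7 -0.28 (0.0608 by the same limma fit).

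Regulators of mitochondrial biogenesis and mitochondrial DNA expression lay mostly below 0, 15 of 18 with a median of -0.12; with the GC trend removed 7 lay above 0 and the median was -0.041. PPRC1, a coactivator related to PGC-1alpha, had 15.9, 14.8 and 16.1 FPKM with vehicle and 13.2, 12.3 and 12.6 with CBD (-0.28 ± 0.05 SE; limma adjusted p = 0.0585). ESRRA, the nuclear receptor that drives many oxidative phosphorylation genes, had 30.3, 44.3 and 38.6 against 51.6, 51.7 and 48.4 FPKM (0.43 ± 0.13; limma adjusted p = 0.0884), and 0.17 with the GC trend removed or 0.28 without vehicle replicate 1. NRF1 itself had 4.42 ± 0.359 and 3.73 ± 0.289 FPKM (limma adjusted p = 0.135), GABPA 8.17 ± 1.29 and 6.51 ± 0.154 (0.113) and YY1 22.0 ± 1.88 and 21.7 ± 1.1 (0.896). The regulators whose words are named with the promoters thus had differences of -0.19, -0.28 and -0.016. GABPA had -0.10 and YY1 0.029 with the GC trend removed, and without vehicle replicate 1 they had -0.17 and 0.047.

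Among electron carriers and the enzymes that feed the chain, 6 of 9 lay below 0 with a median of -0.063, but with the GC trend removed 6 of 9 lay above 0 with a median of 0.019; without vehicle replicate 1 the median was -0.026. ETFB, a subunit of the electron transfer flavoprotein, had 1.27, 1.61 and 1.30 FPKM against 2.13, 2.13 and 2.04 (0.38 ± 0.08; limma adjusted p = 0.0636), and the mitochondrial glycerol phosphate dehydrogenase GPD2 17.7, 15.3 and 16.1 against 13.8, 13.4 and 13.3 (-0.26 ± 0.06; limma adjusted p = 0.0683; -0.14 with the GC trend removed). Both kept the groups apart. Of relatives outside the symbol rule, the respiratory supercomplex factor HIGD2A had 36.8, 43.1 and 38.2 FPKM against 52.8, 53.4 and 52.0 (0.41 ± 0.06; limma adjusted p = 0.0538), and HIGD1A, its hypoxia-induced relative, -0.30 (limma adjusted p = 0.125), or -0.15 with the GC trend removed and -0.17 without vehicle replicate 1. NDUFA4L2, the hypoxia-induced relative of NDUFA4, averaged 0.111 and 0.107 FPKM and was not tested. The 5 tested relatives had a median of -0.083, which was 0.031 with the GC trend removed.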

How the data were processed

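Values are FPKM, deposited by the authors in 1 table, given per library per the file headers. Alignment and counting tools listed in the submitters' processing notes are featureCounts 1.5.0-p3 and HISAT2 2.0.5; genome build, annotation and strand setting are not given in the sources used here, so a gene and its antisense or overlapping neighbour cannot be told apart. All identifiers were found in GENCODE 29. FPKM times exon-union length, scaled once in each library, came out as whole fragments for 100% of values (tolerance 0.01). These served for depth and limma-voom.

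The 12517 genes with a mean of at least 1 FPKM were fitted as log2(FPKM + 1) with limma 3.58.1 in R 4.3.3 (group as the only term, intensity trend, two-sided, Benjamini-Hochberg over all genes; prior df 3, residual 4). GC trends were loess fits (span 0.3). The pipeline was tested on simulated data. Members, lists and the rule for named genes were chosen with earlier results of these data known. The rule names called subunits, the largest rise and fall per complex among non-overlapping genes, a panel of 25 genes, and in each list the smallest p in each direction; other genes were added after their values were seen. A total of 17 alternatives were planned and 1 was added after seeing the data (GC trend removed, without vehicle replicate 1). Of 90 members, 48 share exon bases with another gene, and 31 share 75-base words with another locus. Python 3.11.15, pandas 2.3.3, numpy 2.4.6 and matplotlib 3.10.9 made tables and plots.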

Additional observations from a re-analysis of the deposited data

How the results depend on the processing

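Genes called numbered 44 (32 higher, 12 lower), 732 with a mean FPKM of at least 5, 73 with median-ratio scaling and 73 with quantile normalization, 4 with the same FPKM sum (2 and 2), 1315 among protein-coding genes only, 1745 with limma-voom, 8 with the GC trend removed, and 0 with no filter on low values (limma, 4670 at unadjusted p under 0.05) or with the GC trend removed without vehicle replicate 1 (2267). Subunits called numbered 1, but 4, 7 and 11 with the mean of at least 5, protein-coding genes and limma-voom. The 4, all higher, were among 70 subunits tested at that filter. Beside them 427 genes were called higher there, and the share of all genes was not worked out. Called higher were 6.82% of protein-coding genes, and 7.26% of all tested genes by limma-voom. No subunit was called with no filter, the same FPKM sum, the GC trend removed, or that without vehicle replicate 1. At unadjusted limma p under 0.05 these settings gave 23, 25, 23 and 22 subunits, beside 4670, 3900, 2284 and 2267 genes. The labelled numbers gave no pairing, as same-numbered libraries deviated with r of -0.0027, 0.052 and 0.024, none over 0.1. The replicate block gave 0 genes called (3676 at unadjusted p under 0.05 by limma) and 0 subunits (26), also with the GC trend removed (2217 and 25). The 1 subunit call stayed with a pseudocount of 0.1, median-ratio scaling and quantile normalization, and without vehicle replicate 1. Leaving out 1 library gave 0 to 2351 genes and 0 to 19 subunits called. Without vehicle replicate 2, 16 subunits were called higher and 3 lower, and 0 were called without vehicle replicate 3 or any CBD replicate. In those last settings the unadjusted limma p was under 0.05 in 19, 15, 14 and 19 of 79 subunits. Over all 12517 tested genes the counts were 2943, 2594, 2454 and 2754.

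Medians by complex moved to 0.094 in complex II with the GC trend removed, and in complex III to 0.11 with quantile normalization, 0.054 with the GC trend removed, 0.037 when vehicle replicate 1 was left out too, and 0.067 to 0.21 with 1 library left out; complex V had 0.064 with the GC trend removed and -0.010 to 0.059 with 1 library left out. With the GC trend removed, with or without the replicate block, the sign turned in 20 of 79 tested subunits, among them COX7B (0.11), COX6C (0.0086), ATP5PB (0.029), SDHC (0.078), UQCRC1 (-0.055), CYC1 (-0.034), COX7A2L (0.011), ATP5F1A (0.0034) and ATP5MC1 (-0.017); without vehicle replicate 1 as well the values were 0.050 for SDHC, -0.0094 for CYC1, 0.057 for COX7A2L and 0.057 for ATP5F1A. Quantile normalization gave -0.12 for ATP5F1B and -0.020 for ATP5MC1, the same FPKM sum -0.0084 for COX7A2, -0.014 for ATP5F1B and -0.016 for ATP5MC1, and limma-voom -0.00123 for ATP5MC1. Leaving out 1 library gave -0.025 to 0.0034 for SDHC, -0.050 to 0.062 for COX7A2, -0.086 to 0.013 for ATP5F1A, -0.010 to 0.025 for ATP5F1B and -0.038 to 0.048 for ATP5MC1. The causes were not tested. The 11 untested members averaged under 1 FPKM, so no difference was tested there.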

Other observations

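Some subunit genes that most cells use were listed at low levels and share exons with other genes; they were chosen after their values were seen. NDUFA13, NDUFA7 and NDUFV2, subunits of complex I, averaged 0.627, 0.305 and 0.651 FPKM, and 21.0%, 33.5% and 28.4% of their annotated exon bases are shared with another gene. NDUFB8 averaged 2.02 FPKM with 48.5% shared, NDUFS7 3.0 with 49.1%, and ATP5ME 7.13 with 61.6%. Other members with shared exons had higher levels, such as NDUFB11 (44.8% shared, 50.1 FPKM) and COX8A (34.5% shared, 127 FPKM). In all, 35 of the 90 members share at least 10% of their exon bases, and the part of overlap in these levels was not tested.

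Levels per length differed widely within each complex, and the length is the union of all annotated exons, so they are not transcript abundances. ATP5F1A, with 10908 such bases, had 8913 to 11819 fragments per library and a mean of 42.6 FPKM. ATP5F1B, with 2322 bases, had 14783 to 18219 fragments and a mean of 330 FPKM. Tested members ran from 1.12 to 152 FPKM in complex I (median 17.9), from 7.70 to 32.4 in complex II, from 2.56 to 102 in complex III, from 9.60 to 127 in complex IV (median 53.8) and from 1.78 to 330 in complex V (median 23.5).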
